A study of Mus musculus with 2 samples.

Results

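Class I molecules of the major histocompatibility complex (MHC) carry peptides from inside the cell to its surface. The machinery was followed through 9 genes taken by symbol from the deposited table, B2m, H2-K1, H2-D1, Tap1, Tap2, Tapbp, Tapbpl, Nlrc5 and Erap1, among 46095 genes in all. The 9 rows were found, and 8 of them passed the filter of at least 10 counts summed over both libraries, as did 17356 genes of the whole table. The RNA came from C3H10 cells, a mouse mesenchymal line that turns into adipocytes when induced, at day 6 of differentiation. The control library (ASO NC) was from cells given a negative control antisense oligonucleotide (ASO), and the other library (ASO MALAT1) was from cells given an ASO that targets MALAT1, a long noncoding RNA of the nucleus. Both received 100 nM ASO with the same transfection reagent, and both were induced with isobutylmethylxanthine, dexamethasone, troglitazone and insulin before insulin alone. The labels give the strain as C57BL/6, and which of the 2 ASOs designed against MALAT1 was sequenced is not stated. Each group is 1 library, so no difference below has a replicate check, and no untransfected library was analysed.

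A class I molecule is a polymorphic heavy chain paired with beta-2 microglobulin. Its peptides are cut by the proteasome, carried into the endoplasmic reticulum by the transporter TAP, trimmed there by aminopeptidases and loaded with the help of tapasin, calreticulin and the disulfide isomerase ERp57. Nearly all nucleated cells make these proteins, and interferons raise the transcription of most of the genes, in part through the coactivator NLRC5.

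Depth was 58147539 counts for the control and 61653549 counts for the knockdown, scaled by factors of 0.992 and 1.01 with the trimmed mean of M-values (TMM). Malat1, the target, had 170402 counts in the control library and 45396 counts in the knockdown library, which left 24.7% of the control level. Of 15 adipocyte markers, 14 were lower at an adjusted p under 0.05, and their summed level in counts-per-million (CPM) was 8481.5 for the control and 3736.2 for the knockdown. Fewer adipocytes and less of these RNAs per adipocyte cannot be told apart in bulk RNA. Of 12 fibroblast markers, 9 were higher and 2 lower. Over all genes tested, 24.2% were higher and 23.8% lower at this threshold. Of 15 immune cell markers, 4 were tested, 2 were higher and 1 lower, and 7 were at 0 in both libraries. They summed to 9.51 and 11.2 CPM. Among the myeloid markers, Lyz2 was called higher on 7 and 25 counts, Cd14 was higher (362 and 536 counts) and Cd68 lower (172 and 119 counts). The 1 other marker tested, also a macrophage gene, had a positive fold change on few counts and did not pass the test. Ptprc, Adgre1 and Itgam, other markers of leukocytes and macrophages, were listed at 0 in both libraries. The part of these shifts in the differences below was not tested.

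B2m, Nlrc5, Erap1 and Tapbpl lay between 106% and 116% of their control levels, whereas H2-K1 was at 137% and Tap2 at 52.1%. Of the 8 genes tested, 4 were higher in the knockdown library at an adjusted p under 0.05 (B2m, H2-K1, Nlrc5 and Erap1) and 1 was lower (Tap2), by a two-sided exact binomial test of the counts with Benjamini-Hochberg adjustment over all 17356 genes. This test compares 2 libraries and covers counting error only, and at this depth it passed 24.2% of all genes as higher and 23.8% as lower. None of the 8 genes also reached a log2 fold change of 1 in size, a line that 2.18% of all genes passed upward and 4.09% downward. The median log2 fold change of the 8 genes was 0.16, beside -0.00 over all genes tested, whose lower and upper quartiles were -0.23 and 0.18. Counting error shrinks as counts grow, so the genes were also read by abundance. The 3 genes that averaged at least 1000 counts, B2m, Nlrc5 and Erap1, were all higher, beside 35.2% of all genes that abundant being higher and 30.1% lower. Of the 5 genes under that mean, 1 was higher and 1 lower, beside 14.3% and 18.2% of all such genes. With edgeR's exact test and a preset biological coefficient of variation of 0.1, which allows cultures to vary, Tap2 was the only one of the 8 past the threshold (adjusted p = 0.00514), and at presets of 0.2 and 0.4 none was (Tap2 adjusted p = 0.601 and 1.0).

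**Figure D1:**
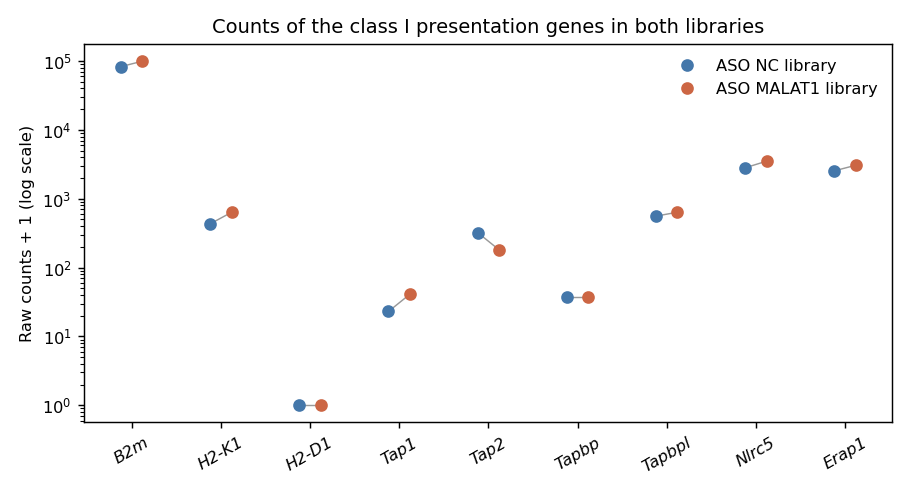
Raw counts plus 1 (log scale) of the 9 class I presentation genes in the control library (ASO NC) and the knockdown library (ASO MALAT1), 1 point per library. B2m stands at 82869 and 99333 counts, Tap2 is the gene with fewer counts in the knockdown library (321 and 180), and H2-D1 has 0 counts in both.

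**Figure D2:**
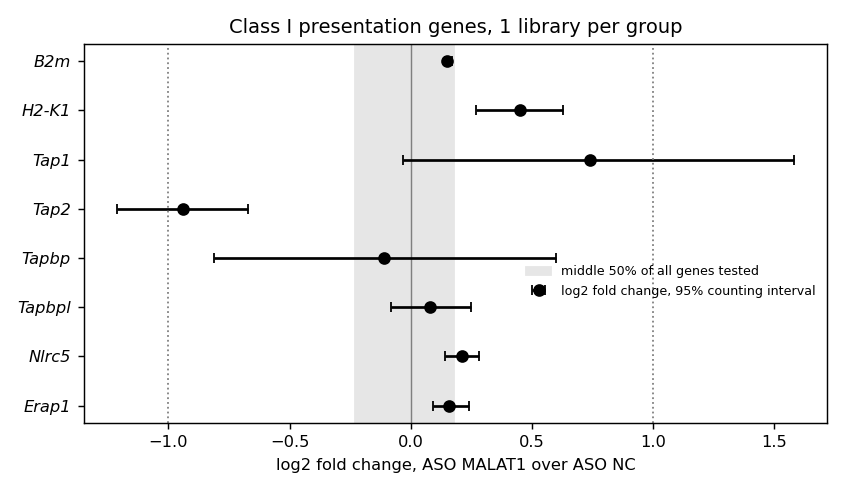
Log2 fold change (ASO MALAT1 over ASO NC) of the 8 genes tested, with 95% Clopper-Pearson intervals that cover counting error only, over a grey band between the quartiles of all genes tested. Dotted lines mark a log2 fold change of 1 in size. The intervals of B2m, H2-K1, Nlrc5 and Erap1 lie above 0, that of Tap2 lies below 0, and those of Tap1, Tapbp and Tapbpl include 0.

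B2m encodes beta-2 microglobulin, the light chain that every class I heavy chain needs to reach the surface. In GENCODE M21 on GRCm38, the build that the submitters' notes name, it lies on the plus strand of chromosome 2 from 122147686 to 122153083. It had 82869 counts in the control library and 99333 counts in the knockdown library, or 1436.1 and 1598.9 CPM. The log2 fold change was 0.15 (95% interval 0.14 to 0.17), and the level was 111% of the control. B2m was the most abundant of the 9 genes by far: per kilobase of exon, its level in the control library was 1669.9 CPM, where Erap1, the next, reached 6.04 CPM. No other gene in GENCODE M21 shared a stretch of at least 200 bases with its transcripts at 95% identity or more.

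H2-K1 and H2-D1 encode the classical heavy chains, the polymorphic subunits that hold the peptide and are seen by CD8 T cells. H2-K1 (chromosome 17, 33996017 to 34000347, minus strand) had 430 counts in the control library and 633 counts in the knockdown library. This gave a log2 fold change of 0.45 (95% interval 0.27 to 0.63, adjusted p = 2.51e-06 in the exact binomial test), the largest of the 4 rises that passed. H2-D1 (chromosome 17, 35262730 to 35267499, plus strand) was listed at 0 in both libraries, a count that allows up to 3 counts, or 0.052 CPM (control) and 0.0483 CPM (knockdown). Transcripts of H2-K1 shared near-identical stretches with those of 7 other genes, H2-D1, H2-T22 and H2-Q1 among them, and those of H2-D1 with 2. How reads that fit several of these genes were counted is not given in the sources used here, so the values of both heavy chains are uncertain. The reference genome is that of C57BL/6J, whereas the C3H/10T1/2 line is known as a derivative of C3H embryos, and the heavy chains differ between these strains. The effect of such differences on the counts was not tested.

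Promoter sequences of the light chain, both heavy chains and the trimming enzyme are shown so that their counts can be read beside the elements that class I promoters are known for, an interferon-responsive site and the boxes named X and Y, where NLRC5 works with the RFX complex and its partners. RefSeq windows of 250 bases before to 50 bases after the annotated start were given for 6 of the 9 genes (build GRCm38.p6), with 7 windows in all, since H2-K1 has 2. Tap2, Tapbpl and Nlrc5 had no window. Capitals mark every match, on either strand, to 5 motifs. These were the IRF-type element, spelled GAAANNGAA. The core of the X2 box was spelled TGACG. The CCAAT box is its own spelling and is read in reverse in the Y box. The TATA box was spelled TATAAA, and the gamma-activated site was spelled TTCNNNGAA.

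The B2m window is chr2:122147437-122147736 (plus strand), those of the heavy chains are chr17:34000284-34000583 (H2-K1, minus strand) and chr17:35262844-35263143 (H2-D1, plus strand), and that of Erap1 is chr13:74639603-74639902 (plus strand).
B2m: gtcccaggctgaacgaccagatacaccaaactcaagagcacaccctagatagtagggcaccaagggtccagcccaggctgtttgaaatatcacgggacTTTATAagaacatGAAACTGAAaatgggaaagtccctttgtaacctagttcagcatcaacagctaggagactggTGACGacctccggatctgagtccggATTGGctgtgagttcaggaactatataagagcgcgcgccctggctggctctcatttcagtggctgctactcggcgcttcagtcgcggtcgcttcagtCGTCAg
H2-K1: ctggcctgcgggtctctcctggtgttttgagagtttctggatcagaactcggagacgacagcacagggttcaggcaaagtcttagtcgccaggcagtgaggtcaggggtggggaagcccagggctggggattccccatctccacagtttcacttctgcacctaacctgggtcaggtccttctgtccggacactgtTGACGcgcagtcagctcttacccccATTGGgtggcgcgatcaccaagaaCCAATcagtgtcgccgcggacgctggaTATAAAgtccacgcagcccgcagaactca
H2-D1: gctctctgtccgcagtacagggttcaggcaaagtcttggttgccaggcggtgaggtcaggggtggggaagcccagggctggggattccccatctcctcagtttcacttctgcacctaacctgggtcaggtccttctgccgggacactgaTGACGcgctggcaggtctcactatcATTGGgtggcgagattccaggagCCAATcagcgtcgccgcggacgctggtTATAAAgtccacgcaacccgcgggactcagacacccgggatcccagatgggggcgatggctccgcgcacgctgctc
Erap1: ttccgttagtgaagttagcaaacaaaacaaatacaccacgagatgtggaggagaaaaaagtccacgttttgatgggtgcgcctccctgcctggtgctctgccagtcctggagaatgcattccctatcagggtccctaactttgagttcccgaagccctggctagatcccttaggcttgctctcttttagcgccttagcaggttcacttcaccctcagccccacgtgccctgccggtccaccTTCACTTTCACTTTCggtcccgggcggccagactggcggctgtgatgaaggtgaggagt

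The B2m window held an IRF-type match that began 139 bases before the start, an X2 core 78 bases before it and a reversed CCAAT box 53 bases before it. Also in capitals there are reversed TATA letters 152 bases before the start and a reversed X2 core at position 45 after it. Both printed heavy chain windows held an X2 core, a reversed CCAAT box, a CCAAT box and a TATA box in the same order. The TATA letters began 26 bases before the H2-D1 start, but at position 22 after the annotated start in the printed H2-K1 window. In the other H2-K1 window they began at position 36. The best local alignment of the printed H2-K1 and H2-D1 windows was identical at 217 of 242 aligned columns (89.7%), and bases outside it were not compared. No heavy chain window matched the IRF-type letters. Each motif was searched in 1 spelling only, so other spellings of an interferon-responsive site were not looked for and their absence is not shown. A pair of overlapping IRF-type matches on the minus strand lay beside the start of Erap1 and is printed as 1 run of capitals. The Tap1 window held an X2 core and a CCAAT box, and that of Tapbp held 2 reversed CCAAT boxes. None of the 7 windows matched the gamma-activated site. Of the 32851 windows of all genes, 8.56% held the IRF-type letters, 20.8% the X2 core, 37.4% a CCAAT box, 13.6% the TATA letters and 8.3% the gamma-activated site, so a match is a description of the sequence and not of a bound factor.

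Tap1 and Tap2 encode the paired chains of TAP, which pumps peptides from the cytosol into the endoplasmic reticulum. Their fold changes had opposite signs, and that of Tap2 passed the test. Tap2 (chromosome 17, 34203527 to 34216321, plus strand) had 321 counts in the control library and 180 counts in the knockdown library. The log2 fold change of Tap2 was -0.94 (95% interval -1.21 to -0.67, adjusted p = 8.3e-12 in the exact binomial test), or 52.1% of the control level. Tap1 (chromosome 17, 34187553 to 34197225, plus strand) had 22 counts in the control library and 40 counts in the knockdown library. The log2 fold change of Tap1 was 0.74, with an interval from -0.03 to 1.58 that included 0 but did not overlap that of Tap2. Tap2 is overlapped by 2 genes on the opposite strand that are not rows of the table, and Tap1 shares its edge with Psmb9, at 0 counts in both libraries. Whether the counting used strand is not stated.

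Tapbp and Tapbpl encode the peptide editors, tapasin, which bridges TAP and the empty class I molecule, and its relative TAPBPR, which edits peptides outside that complex. Tapbp (chromosome 17, 33915899 to 33929292, plus strand) had 36 counts in each library, a log2 fold change of -0.11 with an interval from -0.81 to 0.60. A 1.5-fold change of Tapbp in either direction therefore lies inside its counting error at this depth. Tapbpl (chromosome 6, 125223933 to 125231860, minus strand) had 557 counts in the control library and 635 counts in the knockdown library. The difference on the log2 scale was 0.08 (95% interval -0.08 to 0.25, adjusted p = 0.459 in the exact binomial test), which did not pass. Vamp1, which overlaps Tapbpl on the opposite strand, had 282 and 113 counts, and transcripts of 8 other genes share stretches with those of Tapbpl.

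Erap1 encodes the aminopeptidase that trims peptides to the length class I molecules hold. The gene (chromosome 13, 74639568 to 74693201, plus strand) had 2538 counts in the control library and 3057 counts in the knockdown library. This was 112% of the control level, or 0.16 on the log2 scale (95% interval 0.09 to 0.24, adjusted p = 0.000115 in the exact binomial test). Cast, on the opposite strand, shares 834 bases of transcript with Erap1 and had 16079 and 17823 counts. Nlrc5 encodes the transactivator that binds class I promoters with the RFX complex. Nlrc5 (chromosome 8, 94434356 to 94527272, plus strand) had 2810 counts in the control library and 3504 counts in the knockdown library. The knockdown level was 116% of the control, or 0.21 on the log2 scale (95% interval 0.14 to 0.28, adjusted p = 3.81e-08 in the exact binomial test). The rises of Erap1, B2m and Nlrc5 were thus all under that of H2-K1, at 137% of the control, a value given above as uncertain. The intervals of Nlrc5 and H2-K1 (0.27 to 0.63) overlapped.

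Per kilobase of exon, the levels in the control library ran from B2m at 1669.9 CPM to Erap1 at 6.04 CPM, Nlrc5 at 5.73, Tapbpl at 4.10, H2-K1 at 2.54, Tap2 at 1.47, Tapbp at 0.172 and Tap1 at 0.0696, with H2-D1 listed at 0. The exact Poisson intervals of Erap1 (5.81 to 6.28 CPM per kilobase) and Nlrc5 (5.52 to 5.95) overlapped, and the other neighbours in this order, Tapbp and Tap1 included, did not overlap. In the knockdown library the order of these levels was kept, with Tap2 at 0.766, Tapbp at 0.160 and Tap1 at 0.118 CPM per kilobase. There the intervals of Erap1 (6.52 to 7.0) and Nlrc5 (6.42 to 6.86) overlapped, as did those of Tapbp (0.112 to 0.221) and Tap1 (0.0840 to 0.160). Both orders hold for counted reads only, because the 5 genes on chromosome 17 lie in a stretch that was poor in counts.

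**Figure D3:**
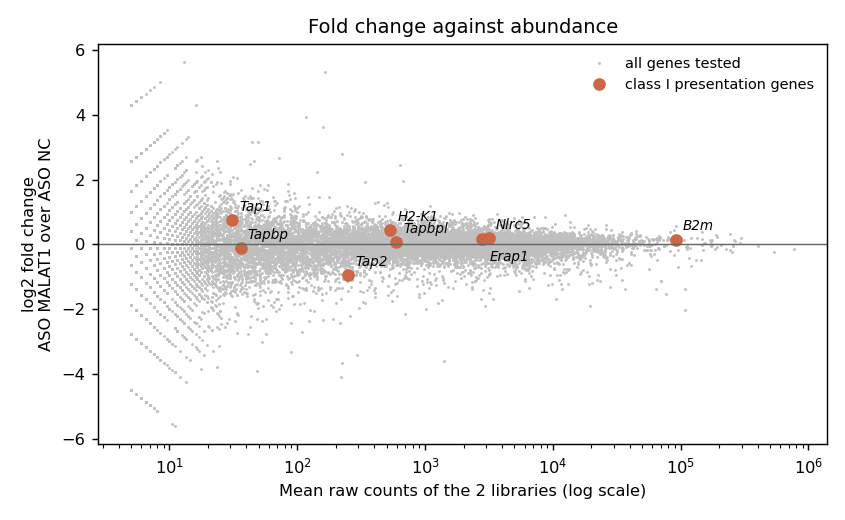
Log2 fold change (ASO MALAT1 over ASO NC) against the mean raw counts of the 2 libraries (log scale) for all 17356 genes tested (grey) and the 8 class I presentation genes tested (orange). B2m, Nlrc5 and Erap1 sit just above 0 among abundant genes, while Tap1 and Tapbp lie below a mean of 100 counts, where the fold changes of all genes spread widely.

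The median log2 fold change was 0.17 for the 4 genes tested on chromosome 17 and 0.16 for the 4 elsewhere. The 4 genes outside the MHC region, B2m, Tapbpl, Nlrc5 and Erap1, had log2 fold changes from 0.08 to 0.21 and 3 of them passed the test. The 5 genes on chromosome 17 summed to 14.0 CPM (control) and 14.3 CPM (knockdown), against 1538.4 and 1714.7 CPM for the other 4, and their fold changes ran from -0.94 to 0.74 on fewer counts. This stretch of chromosome 17 was poor in counts throughout. From Tapbp to H2-D1 the RefSeq table (GRCm38.p6) places 89 protein-coding genes of the count table, and 79 of them (88.8%) had under 100 counts in both libraries together, beside 46.9% on the rest of the chromosome and 45.2% of all protein-coding genes. In the same stretch 47 genes (52.8%) were at 0 in both libraries, beside 29.3% on the rest of the chromosome. In the 1 Mb before Tapbp 46.4% of genes had under 100 counts, and in the 1 Mb after H2-D1 52.4% did. The ends of the stretch were set by the members and not by the counts, and low counts went on past both. The nearest genes before Tapbp, Zbtb22, Daxx and Kifc1, had 2, 22 and 131 counts in both libraries together. The nearest after H2-D1, H2-Q1, H2-Q2 and H2-Q4, had 11, 0 and 2208.

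Genes that nearly every cell uses were among those with few counts, and the ones named here were picked after their values were seen. Rps18, a ribosomal protein gene between Tapbp and H2-K1, had 3 counts in each library, the fewest of 76 ribosomal protein genes with a median of 15743 counts over both libraries. A pseudogene copy named for it, Rps18-ps3, had 3246 and 3694 counts. Bag6, Ddx39b, Csnk2b and Clic1 were listed at 0. The low counts of Tapbp, Tap1 and H2-D1 therefore cannot be told apart from this shortage of counts along the stretch and are not given as low expression. H2-K1 and the complement gene C4b were the only 2 of the 89 genes to reach 1000 counts over both libraries, and C4b had 1207 and 762 counts (log2 fold change -0.77). The 21 other genes tested in the stretch had a median log2 fold change of 0.27 with quartiles of -0.60 and 0.83, against -0.15 and 0.19 on the rest of the chromosome. The fold changes of Tap1 (0.74) and H2-K1 (0.45) lay between the quartiles of these neighbours, and that of Tap2 (-0.94) lay below them. These neighbours went down to 10 counts in all, against 1063 for H2-K1 and 501 for Tap2. Their spread thus holds much counting error, and whether H2-K1 or Tap2 differs from the neighbours was not tested.

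**Figure D4:**
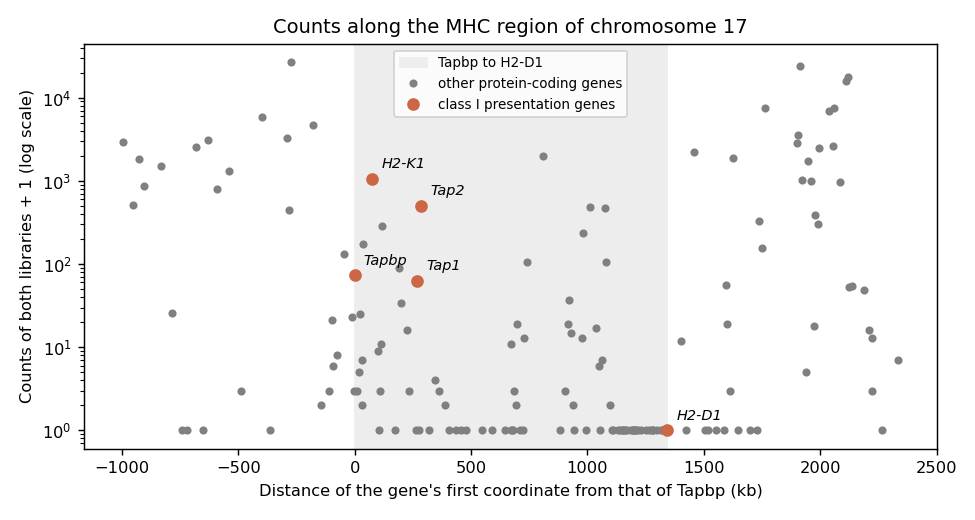
Counts of both libraries plus 1 (log scale) for protein-coding genes along chromosome 17, by distance in kilobases from the first coordinate of Tapbp; grey shading marks Tapbp to H2-D1. In the shaded stretch 47 of 89 genes are at 0 counts, while H2-K1 and C4b stand at 1063 and 1969.

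The lists below hold other genes of the pathway and of its control, written from general knowledge. Their counts stand beside 24.2% higher and 23.8% lower over all genes tested at an adjusted p under 0.05. Among genes that averaged at least 1000 counts these shares were 35.2% and 30.1%. With the log2 fold change of 1 in size besides, 2.18% of all genes were called higher and 4.09% lower. Among the other class I heavy chains, 24 of 26 symbols were in the table, 14 were at 0 in both libraries and 8 were tested. Of these, 3 were higher, 2 lower and 3 not past the test, with a median log2 fold change of 0.01. H2-T22, a nonclassical chain that gamma delta T cells recognise, had 8266 counts in the control library and 9377 counts in the knockdown library (log2 fold change 0.08). H2-T23, which encodes Qa-1 and presents leader peptides to natural killer cells, had 8099 and 7817 counts (log2 fold change -0.16). H2-Q4 was higher, at 896 and 1312 counts with a log2 fold change of 0.44 (95% interval 0.32 to 0.57), close to that of H2-K1. The pseudogene H2-T-ps was the only one called lower with a log2 fold change past -1, on 34 and 14 counts. Per kilobase of exon, H2-T22 and H2-T23 stood at 42.0 and 48.6 CPM in the control library, above H2-K1 at 2.54 CPM and far below B2m. H2-K1 lies inside the stretch poor in counts, whereas H2-T22 and H2-T23 lie outside it. This order thus holds for counted reads only and is not given as an order of expression.

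Of the immunoproteasome, the form of the proteasome that favours class I peptides, Psmb8, between Tap1 and Tap2, and Psmb9, beside Tap1, both inside the stretch poor in counts, were listed at 0 in both libraries. Psmb10, which lies elsewhere, was higher (1203 and 1513 counts, log2 fold change 0.22), whereas of the PA28 activator Psme1 had a log2 fold change of 0.01 and Psme2 was lower at -0.16. The constitutive counterparts Psmb5 (-0.02) and Psmb7 (0.02) did not pass the test, nor did Psmb6 on 30 and 16 counts.

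Of 13 loading chaperones and glucosidases, 10 were higher, 1 lower and 2 not past the test, with a median log2 fold change of 0.11. Calr, the calreticulin of the loading complex, went from 70961 to 89341 counts (log2 fold change 0.23), and Pdia3, which encodes ERp57, went from 38235 to 51590 counts (0.33). Hspa5, the general chaperone BiP, was higher by 0.32 and Canx, calnexin, by 0.05 on the log2 scale. Of 7 other antigen-trimming peptidases, 4 were higher, 2 lower and 1 not past the test. Lap3, a leucine aminopeptidase, was higher by 0.22 on the log2 scale, Npepps had a log2 fold change of -0.09, and Lnpep, which trims peptides in endosomes, of 0.00. Degradation from the endoplasmic reticulum, the fate of unloaded heavy chains, had 6 of 12 genes lower and 0 higher, with a median of -0.05. Derl1 was lowest at -0.37, and Vcp had a log2 fold change of -0.02.

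Of 16 transcription factors and cofactors of class I promoters, 11 were higher, 1 lower (Rfxap, log2 fold change -0.26) and 4 not past the test, with a median of 0.08 and a range from -0.26 to 0.20. Nfkb1, a subunit of NF-kappa B, went from 5354 to 6614 counts (log2 fold change 0.20), and Ep300, a histone acetyltransferase, from 8005 to 8962 counts (0.06). Interferon receptors and their kinases were split, with 2 of 7 higher and 3 lower. Ifngr1, a chain of the interferon gamma receptor, was lower, at 11392 and 7745 counts (log2 fold change -0.66, 95% interval -0.71 to -0.62), whereas Jak2 was higher by 0.16 and Ifnar1 had a log2 fold change of -0.07. Of 9 interferon genes, 8 were listed at 0 in both libraries, and Ifne had 1 and 9 counts.

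Interferon-stimulated genes, a list that shares the induction by interferon with class I genes, were mostly higher. Of 24 tested, 22 were higher and 0 lower, with a median log2 fold change of 0.39, beside 0.16 for the class I genes, and this difference was not tested. Cmpk2 (1.22) and Rsad2 (1.08) were past the line of 1, while Stat2, at 11028 and 13972 counts, had a log2 fold change of 0.23. For comparison, 18 widely expressed reference genes split into 6 higher, 6 lower and 6 not past the test.

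**Figure D5:**
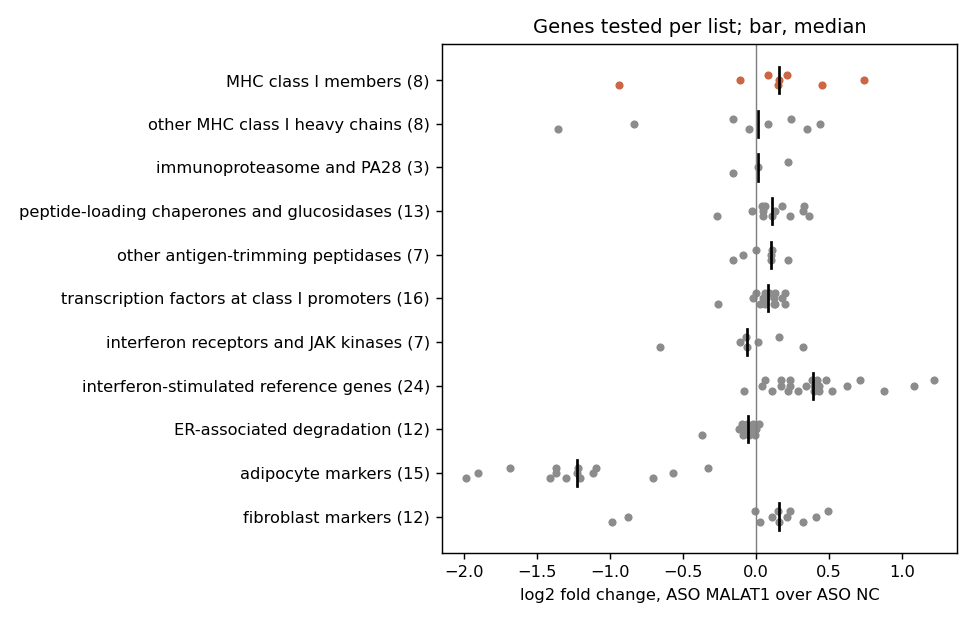
Log2 fold change (ASO MALAT1 over ASO NC) of each gene tested in 11 gene lists, 1 point per gene, with a black bar at the list's median and the number of genes tested in brackets. The class I genes have a median of 0.16, interferon-stimulated genes one of 0.39 and adipocyte markers one of -1.23.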

How the data were processed

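RNA-seq of total RNA depleted of rRNA was analysed for 1 control and 1 MALAT1-knockdown library. The authors deposited raw counts per gene symbol, without normalization. HISAT2 and GRCm38 stand in the submitters' processing notes, with no version. The counting tool, annotation, strand setting and handling of multi-mapped reads are not given in the sources used here. Such handling can lower the counts of genes with near-identical copies.

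Genes with at least 10 counts in all were scaled by TMM (edgeR 4.0.16, R 4.3.3). Log2 fold changes used a prior count of 0.5. With no replicates for edgeR's quasi-likelihood test, a two-sided exact binomial test (the smaller tail times 2, scipy 1.17.1, Python 3.11.15) was used with Benjamini-Hochberg adjustment. Calls needed an adjusted p under 0.05 and, besides, a log2 ratio that reached 1 in size. Intervals are 95% Clopper-Pearson or exact Poisson limits, and like the floor of 3 counts they cover counting error only, since reads are not independent molecules. The fit was tested on simulated counts with Poisson error only, the error the binomial test assumes, so spread between cultures was not covered. Exon lengths and places came from GENCODE M21, promoters and gene order from RefSeq (GRCm38.p6), and shared stretches from blastn 2.17.0. The named genes were all 9 members, Malat1, and up to 4 per list, called genes first and then the most abundant. Ptprc, Adgre1, Itgam, Psmb8, Psmb9, Rfxap, Rps18-ps3 and the genes that overlap members were named after their values were seen. So were the genes nearest the ends of the chromosome 17 stretch. A gene that the rule also names is not reported here. With 2 libraries no likeness between gene patterns could be measured. The members and lists were chosen with earlier results of these data known.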

Additional observations from a re-analysis of the deposited data

How the results depend on the processing

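Scaling by totals, by upper quartiles or by the size factors of DESeq2 1.42.0, both other filters and prior counts of 0.1 and 2 left 4 class I genes higher and 1 lower at an adjusted p under 0.05, the same 5 genes each time, and 0 called. So did another form of the two-sided exact binomial p, summed over outcomes by their probability and chosen after seeing the data. With a 1.5-fold line, 1 gene, Tap2, was called lower. With edgeR's exact test, 0 were higher at a preset biological coefficient of variation of 0.1, 0 at 0.2 and 0 at 0.4, and lower genes numbered 1, 0 and 0, since that test allows spread between cultures. The adjusted p of Tap2 was 0.601 at 0.2. Over all genes, 378 were called higher and 710 lower. At least 10 counts in each library gave 166 and 394, which tests fewer genes, and the 3 presets gave 201 and 466, 22 and 95, and 1 and 0. With at least 1 count in all, the median log2 fold change of class II genes was -1.38 in place of 0.04. No paired analysis was possible because each group had 1 library, and no replicate could be left out. Tap1, Tapbp and H2-D1 had 62, 72 and 0 counts in all, and the cause of these low counts was not tested.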

Other observations

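Class I-like molecules encoded outside the MHC were also read. Of 12 in the table, 9 were tested, 3 were higher, 3 lower and 3 not past the test, with a median log2 fold change of -0.10. Ulbp1 and H60b, ligands of the activating receptor NKG2D, were called higher, as were 2.18% of all genes tested. Ulbp1 had 126 counts (control) and 301 counts (knockdown), or 1.15 on the log2 scale (95% interval 0.85 to 1.46). H60b had 4 and 16 counts, or 1.77 on that scale (95% interval 0.26 to 3.93). Fcgrt, the heavy chain of the neonatal Fc receptor and a partner of B2m, was lower, at 12112 and 9883 counts (log2 fold change -0.40). Mr1, which presents vitamin metabolites, had a log2 fold change of -0.01.

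MHC class II genes had few counts, and 9 of the 11 lie inside the stretch of chromosome 17 that was poor in counts, so these are not given as low expression. Of 11, 4 were tested, 1 was lower and 0 higher. Cd74, the invariant chain, had 444 and 397 counts (log2 fold change -0.27), and Ciita, the class II counterpart of Nlrc5, had 68 and 94 counts. H2-DMa had 22 and 11 counts, and H2-DMb2 had 5 and 10. Of 8 endothelial markers, 4 were tested and 2 called higher, beside 2.18% of all genes tested. These were Emcn (20 and 45 counts, 1.04 on the log2 scale) and Vwf (12 and 30 counts, 1.18). The list summed to 1.40 and 1.95 CPM.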
